A study of Homo sapiens with 24 samples.

Results

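The 9 long non-coding snoRNA host genes GAS5, SNHG1, SNHG5, SNHG6, SNHG8, SNHG12, SNHG15, SNHG16 and ZFAS1 were followed across 24 RNA-seq libraries from sorted cancer cells. They were taken by symbol from a table of 28307 genes, by a rule that names spliced non-coding transcripts known to rise when translation slows, and all 9 were found and passed the filter on low counts in both cell lines. SUM159 cells come from a breast tumour and SW620 cells from a colon tumour. Each line was exposed for 30 h in adherent culture to nifuroxazide (NIF), a nitrofuran antibiotic, or to DMSO, the solvent used as control. The cells were sorted by ALDEFLUOR, an assay of aldehyde dehydrogenase (ALDH) activity, into ALDHbr cells with high and ALDHneg cells with low activity. The 8 groups (SUM159 or SW620, ALDHbr or ALDHneg, NIF or DMSO) held 3 libraries each, from independent experiments. The dose of NIF in the sequenced cultures was not used here. Both are established cell lines. The paper describes sorting of control and NIF-treated cells for sequencing without stating outright which step came first. Sorting is read here as the later step, so that the populations are those with high or low activity at the end of the exposure.

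Small nucleolar RNAs (snoRNAs) guide chemical modification of ribosomal RNA, and in these host genes they lie in the introns and are released when the transcript is spliced. The exons that remain hold only short open reading frames with early stop codons, so the spliced RNA is engaged by ribosomes and then removed by nonsense-mediated decay (NMD), a pathway that depends on translation. Many such genes start with a run of pyrimidines, the signature of transcripts whose translation follows the growth state of the cell, as ribosomal protein genes do. Host RNA and snoRNA are therefore separate products of 1 gene.

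Sequence at the start of the gene was matched in RefSeq's table (GRCh38.p14) for 7 of the 9 genes. Within 10 bases before and 50 bases from the start given there, on the gene's own strand, the longest unbroken run made only of C and T was found. It is printed for the 2 host genes with the largest responses to NIF in SW620 and for 2 that did not pass the test there, in windows of 30 bases with the run in capitals. The GAS5 window lies at chr1:173868996-173869025, minus strand, that of ZFAS1 at chr20:49278662-49278691, plus strand, that of SNHG1 at chr11:62855860-62855889, minus strand and that of SNHG12 at chr1:28581853-28581882, minus strand.
GAS5: ctacaccagcgCCTTTTTTgtttgctcttt
ZFAS1: ggagtgtggtaCTTCTCCTagttgcagtca
SNHG1: cgttctcaTTTTTCTactgctcgtggtaag
SNHG12: cttcagcgCCCTTTCTCCCCgccgcattcc
The start in that table is the end of the gene's span in GAS5 and SNHG1, while in ZFAS1 it lies 464 bases and in SNHG12 1110 bases inside the span, so those windows belong to another start than the outermost. The runs are 8, 8, 7 and 12 bases long. They begin at base 32 from the table's start in GAS5 and in ZFAS1, at base 5 in SNHG1 and at 1 base before the start in SNHG12. Of the 7 genes matched, 7 held a run of at least 6 bases, against 48.1% of all 35116 entries, 5 a run of at least 7, against 32.6%, and 4 a run of at least 8, against 21.8%. Such a run is a description of these letters and marks no site.

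Library totals ran from 30253187 to 43127948 counts with a median of 36520935. Markers of colon epithelium and of mesenchymal cells set the lines apart. No breast marker was read, so the breast origin of SUM159 was not checked. The summed level of 10 colon epithelial markers (CDX1, CDX2, VIL1, EPCAM, CDH1, CDH17, KRT20, KRT8, LGALS4, GPA33) was 9285 to 11577 CPM (counts scaled to a fixed library size) in SW620 and 215 to 375 CPM in SUM159, where 9 of the 10 were under 1 CPM. The summed level of 10 mesenchymal markers (VIM, ZEB1, CDH2, FN1, SPARC, TWIST1, AXL, CAV1, COL1A1, SNAI2) was 7076 to 9469 CPM in SUM159 and 16.6 to 54.3 CPM in SW620, where 8 were under 1 CPM and 1 was at 0. ALDH1A1, an aldehyde dehydrogenase that the sort reads, stood higher under DMSO in ALDHbr cells than in ALDHneg cells, by a log2 fold change of 8.11 in SUM159 and of 0.54 in SW620. In 5 of the 24 libraries all 9 host genes lay on 1 side of the other 2 libraries of the group. They were lower in DMSO replicate 2 of SW620 ALDHbr cells, and higher in DMSO replicate 1 and NIF replicate 3 of SW620 ALDHbr cells, NIF replicate 2 of SUM159 ALDHbr cells and DMSO replicate 2 of SUM159 ALDHneg cells. Over all genes, DMSO replicate 2 of SW620 ALDHbr cells differed most from its group in SW620, with an SD of log2 differences of 0.35 against 0.24 to 0.32, and the NIF effects in that group are also given without it.

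Host gene levels by library are CPM after TMM normalization within a line. Reads are not divided by transcript length, so levels were compared between libraries and never between genes.

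**Figure D1:**
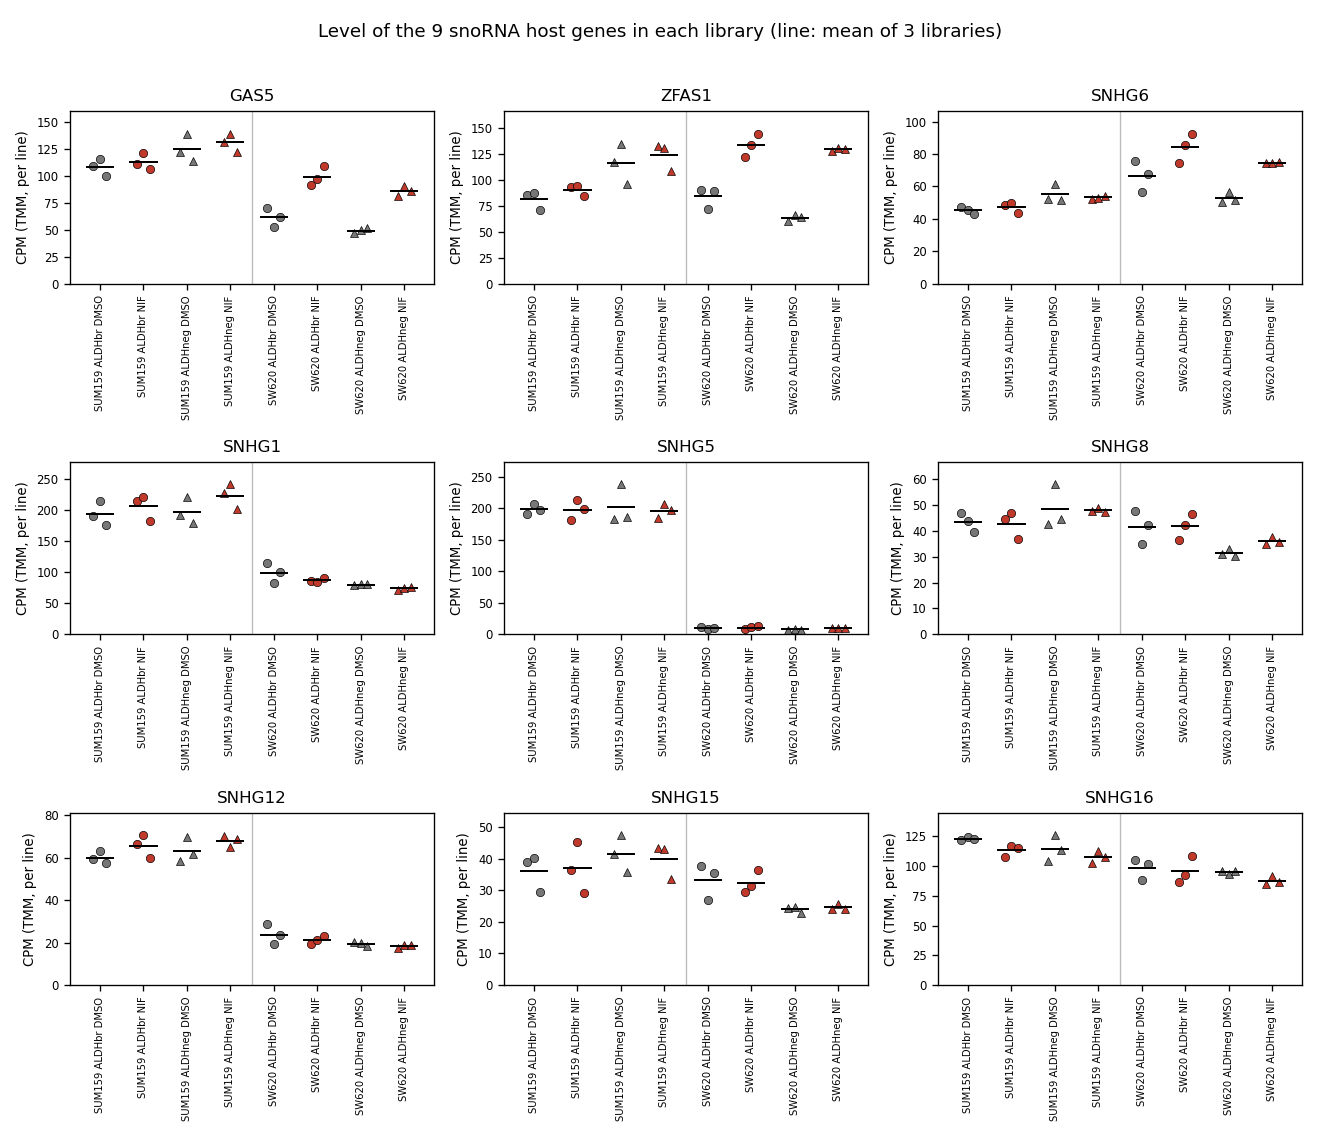
Level of each of the 9 host genes in CPM (vertical axis, TMM within a line) in the 8 groups (horizontal axis), 1 point per library, circles for ALDHbr and triangles for ALDHneg, grey for DMSO and red for NIF, with a line at the mean of 3. In SW620, GAS5 and ZFAS1 under NIF lie above DMSO in both populations, and SNHG5 lies between 182 and 238 CPM in SUM159 and between 7.32 and 13.0 CPM in SW620.

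To ask whether NIF changes the NMD-sensitive host genes in SW620, NIF and DMSO libraries were compared within each population. GAS5, ZFAS1 and SNHG6 rose in both populations, by 1.26- to 2.03-fold, and the other 6 did not pass the test in either. The 3 that rose were 3 of 9 in ALDHbr cells, where 21.4% of all 13953 genes tested were called higher and 21.9% lower, and 3 of 9 in ALDHneg cells, where 22.3% were called higher and 22.7% lower. No host gene was called lower. With library-size scaling in place of TMM the split over all genes in ALDHneg cells went from 3114 higher and 3172 lower to 2578 higher and 3957 lower, and the same 3 host genes were called. With that scaling SNHG1 was also called, lower, in ALDHbr cells. When only the groups compared were fitted, 7 were called in ALDHneg cells, with SNHG5 and SNHG8 added as higher and SNHG1 and SNHG16 as lower. In that fit 60.6% of all 13613 genes were called in either direction. A call is an adjusted p under 0.05 in edgeR's quasi-likelihood test over all genes. In bulk libraries, fewer cells with a transcript and less of it per cell cannot be told apart. The median log2 fold change of the 9 was 0.0023 in ALDHbr and 0.20 in ALDHneg cells, beside -0.0070 and -0.0076 over all genes.

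GAS5, the host of 10 listed box C/D snoRNAs, lies at chr1:173863901-173869045 on the minus strand (GRCh38.p14). In SW620 ALDHneg cells it was at 46.7, 50.3 and 51.4 CPM in the 3 DMSO libraries and at 81.7, 90.7 and 86.0 CPM in the 3 NIF libraries. In ALDHbr cells it was at 70.3, 52.9 and 61.8 CPM under DMSO and at 91.5, 97.5 and 109 CPM under NIF. Every NIF library lay above every DMSO library in both populations, with the lowest DMSO value of ALDHbr cells in replicate 2. The rise was 1.74-fold in ALDHneg cells (log2 fold change 0.80, SE 0.09, adjusted p = 8.54e-06) and 1.61-fold in ALDHbr cells (log2 fold change 0.69, SE 0.09, adjusted p = 3.99e-05), both by edgeR. Without DMSO replicate 2 of ALDHbr cells the latter was 0.60 on the log2 scale (adjusted p = 7.24e-06, edgeR).

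ZFAS1, the host of SNORD12, SNORD12B and SNORD12C at chr20:49278178-49289260 on the plus strand, showed the largest response of the 9 in ALDHneg cells of SW620. It went from 60.9, 66.1 and 64.6 CPM under DMSO to 128, 131 and 130.0 CPM under NIF. In ALDHbr cells it went from 90.9, 72.1 and 89.8 CPM to 122, 134 and 145 CPM. The groups did not overlap in either population, and the NIF libraries reached about the same level in both while the DMSO libraries started higher in ALDHbr cells. The rise was 2.03-fold in ALDHneg cells (log2 fold change 1.02, SE 0.08, adjusted p = 2.77e-07) and 1.58-fold in ALDHbr cells (log2 fold change 0.66, SE 0.08, adjusted p = 2.02e-05), both by edgeR, and the latter was 0.58 on the log2 scale (adjusted p = 1.38e-06, edgeR) without DMSO replicate 2.

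SNHG6, the host of SNORD87, rose less. In ALDHneg cells of SW620 it was at 50.2, 56.7 and 51.4 CPM under DMSO and at 74.3, 74.5 and 75.2 CPM under NIF, with no overlap. In ALDHbr cells it was at 75.5, 56.3 and 67.4 CPM under DMSO and at 74.4, 85.3 and 92.4 CPM under NIF, and the lowest NIF library fell below the highest DMSO library. The edgeR test gave a 1.41-fold rise in ALDHneg cells (log2 fold change 0.50, SE 0.10, adjusted p = 0.000814) and a 1.26-fold rise in ALDHbr cells (log2 fold change 0.34, SE 0.10, adjusted p = 0.0118). The call in ALDHbr cells was lost when only the 2 groups compared were fitted (adjusted p = 0.0558, edgeR), and without DMSO replicate 2 the log2 fold change there was 0.25 (adjusted p = 0.015, edgeR). SNHG6 overlaps MCMDC2, a gene related to the replicative helicase family, on the reference; MCMDC2 had a log2 fold change of -0.56 and -0.05 in ALDHbr and ALDHneg cells and did not pass the test.

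The other 6 host genes had log2 fold changes of -0.19 to 0.12 in ALDHbr cells and of -0.12 to 0.37 in ALDHneg cells of SW620. SNHG1, the host of 8 listed box C/D snoRNAs at chr11:62851978-62855885 on the minus strand, was at 78.8, 80.4 and 80.3 CPM under DMSO and at 71.8, 74.7 and 76.0 CPM under NIF in ALDHneg cells (log2 fold change -0.11, SE 0.09, adjusted p = 0.342, edgeR). In ALDHbr cells SNHG1 was at 114, 83.2 and 99.9 CPM and 85.5, 84.8 and 90.9 CPM (log2 fold change -0.19, SE 0.09, adjusted p = 0.0954, edgeR). The NIF libraries thus lay below the DMSO libraries in ALDHneg cells and overlapped them in ALDHbr cells. SNHG12, the host of SNORD99, SNORA16A, SNORA44 and SNORA61, was at 28.5, 19.3 and 23.4 CPM under DMSO and 19.5, 21.4 and 22.9 CPM under NIF in ALDHbr cells (log2 fold change -0.16, SE 0.11, adjusted p = 0.271, edgeR), and its log2 fold change was -0.08 in ALDHneg cells (adjusted p = 0.593, edgeR). Without DMSO replicate 2, SNHG1 (-0.28 on the log2 scale, adjusted p = 0.000837) and SNHG12 (-0.28, adjusted p = 0.0161) passed the edgeR test as lower under NIF in ALDHbr cells, which made 5 of 9 called, 3 higher and 2 lower, beside 26.1% and 24.3% of all genes in that fit.

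SNHG5, the host of SNORD50A and SNORD50B, was at 7.32, 8.63 and 7.56 CPM under DMSO and at 9.70, 10.7 and 9.91 CPM under NIF in ALDHneg cells of SW620, without overlap (log2 fold change 0.37, SE 0.15, adjusted p = 0.0643, edgeR). It passed the threshold as higher in 3 of 14 alternatives, among them the fit of only the groups compared. In ALDHbr cells its 3 DMSO and 3 NIF libraries overlapped (log2 fold change 0.12, SE 0.15, adjusted p = 0.552, edgeR). SNHG8, the host of SNORA24, was at 31.2, 32.8 and 30.2 CPM and 34.9, 37.4 and 35.8 CPM in ALDHneg cells, also without overlap (log2 fold change 0.20, SE 0.10, adjusted p = 0.139, edgeR), and its log2 fold change was 0.0023 in ALDHbr cells. SNHG15, the host of SNORA9, had log2 fold changes of -0.04 (95% interval -0.28 to 0.19) and 0.04 (-0.20 to 0.28) in ALDHbr and ALDHneg cells. SNHG16, the host of SNORD1A, SNORD1B and SNORD1C, had -0.04 (-0.21 to 0.14) and -0.12 (-0.29 to 0.05). Without DMSO replicate 2 of ALDHbr cells the log2 fold changes there were -0.0031 for SNHG5, -0.10 for SNHG8, -0.16 for SNHG15 and -0.09 for SNHG16, with adjusted p from 0.103 to 0.988 in edgeR. Of the 9 host genes, 2 had all NIF libraries above all DMSO libraries in ALDHbr cells, beside 22.5% of all genes. In ALDHneg cells 5 did, beside 31.5%. SNHG1 and SNHG16 had all NIF libraries below in ALDHneg cells, and the share of all genes lying below was not counted.

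In SUM159 the same comparison gave no called host gene. The 9 log2 fold changes lay between -0.12 and 0.16 in ALDHbr cells, where 0.936% of all 14953 genes were called higher and 2.23% lower, and between -0.09 and 0.18 in ALDHneg cells, where 1.10% were called higher and 2.20% lower. The edgeR count was 0 in both populations at an unadjusted p under 0.05 as well, and DESeq2 called 0. GAS5 was at 109.7, 116 and 101 CPM under DMSO and at 111, 122 and 107 CPM under NIF in ALDHbr cells, and at 122, 139 and 114 CPM and 132, 139 and 123 CPM in ALDHneg cells. ZFAS1 was at 85.9, 87.6 and 70.9 CPM and 93.8, 94.4 and 84.7 CPM in ALDHbr cells, and at 118, 135 and 96.6 CPM and 133, 131 and 109 CPM in ALDHneg cells. All 4 pairs of groups overlapped, and replicate 2 was highest in both treatments for GAS5 in both populations. No host gene had all NIF libraries above DMSO, beside 11.0% of all genes in ALDHbr and 9.65% in ALDHneg cells. SNHG16 in ALDHbr cells had them all below (122, 124 and 123 CPM under DMSO and 108, 117 and 115 CPM under NIF, adjusted p = 0.409, edgeR). The share of all genes lying below was not counted.

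The 95% intervals of the SUM159 fold changes bound what could be missed: for GAS5 they ended at 0.23 and 0.24 on the log2 scale in ALDHbr and ALDHneg cells, for ZFAS1 at 0.40 and 0.34, and for SNHG6 at 0.22 and 0.11. Since the replicate numbers pair the SUM159 libraries, the fit was also made with the replicate as a block. It called 1 host gene higher in each population: ZFAS1 in ALDHbr cells (log2 fold change 0.16, adjusted p = 0.0494), beside 5.77% of all genes, and SNHG1 in ALDHneg cells (0.18, adjusted p = 0.0087), beside 6.10%, both by edgeR. The changes were the same size as without the block, that is 1.12- and 1.13-fold.

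**Figure D2:**
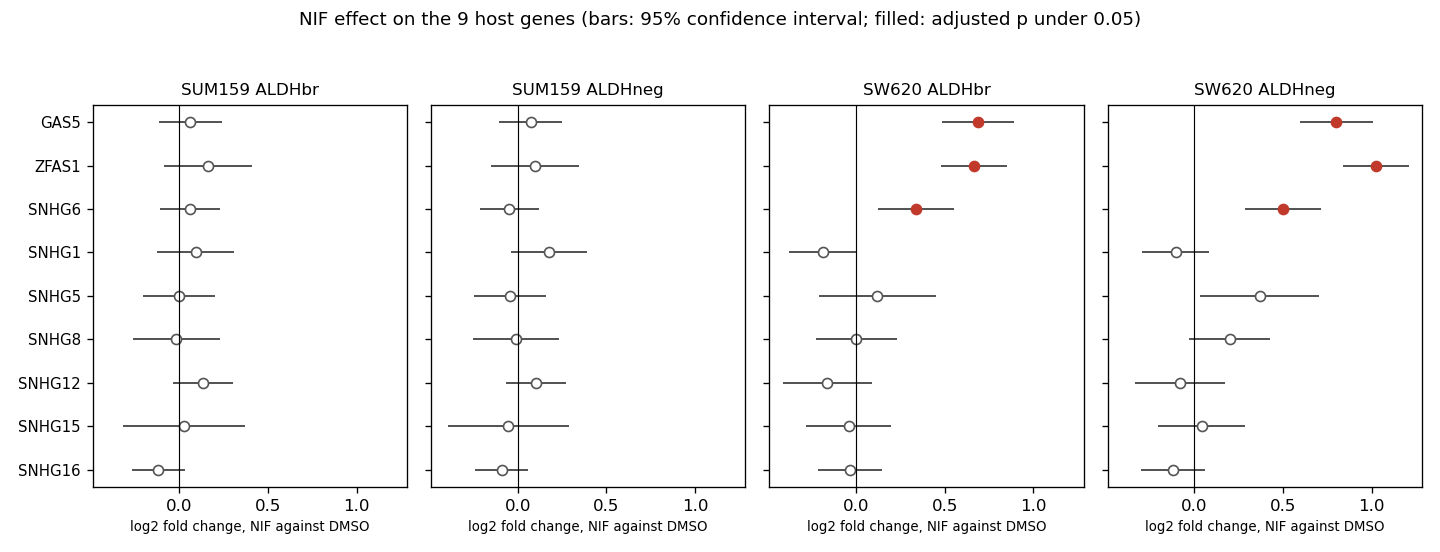
Log2 fold change of NIF against DMSO (horizontal axis) of the 9 host genes in the 4 line and population pairs, with 95% confidence intervals from edgeR, filled where the adjusted p is under 0.05. GAS5, ZFAS1 and SNHG6 are filled in both SW620 panels, and no point is filled in SUM159.

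Whether the lines differ in their response was tested directly, as the difference of the NIF effects in a fit of all 24 libraries. In ALDHneg cells the effect was larger in SW620 for GAS5 (difference in log2 fold change 0.74, SE 0.13, adjusted p = 0.000169), ZFAS1 (0.93, SE 0.15, adjusted p = 6.29e-05) and SNHG6 (0.56, SE 0.13, adjusted p = 0.0024), all by edgeR. In ALDHbr cells it was larger for GAS5 (0.62, SE 0.13, adjusted p = 0.001) and ZFAS1 (0.50, SE 0.15, adjusted p = 0.0182, edgeR), while SNHG6 gave 0.28 (adjusted p = 0.132, edgeR). That is 3 of 9 in ALDHneg cells, beside 22.4% of all genes called in either direction, and 2 of 9 in ALDHbr cells, beside 23.1%. In ALDHbr cells the count was 1 without DMSO replicate 2 of SUM159, where ZFAS1 was lost (adjusted p = 0.0516, edgeR). It was 4 without DMSO replicate 2 of SW620, where GAS5 (0.53, adjusted p = 0.00217) and ZFAS1 (0.40, adjusted p = 0.043) were called, by edgeR. SNHG1 (-0.39) and SNHG12 (-0.42) were added there, with the lower log2 fold change in SW620. Without that library both had -0.28 under NIF in SW620 ALDHbr cells, against 0.09 and 0.13 in SUM159. The shares of all genes in those fits are not given here. With the replicate block SNHG1 was added in both populations, with the lower log2 fold change in SW620 (-0.28 in each, adjusted p = 0.0387 in ALDHbr and 0.0402 in ALDHneg cells, edgeR). That made 3 of 9 in ALDHbr cells, beside 26.9% of all genes, and 4 of 9 in ALDHneg cells, beside 26.1%. Within each line the block gave SNHG1 -0.18 and -0.11 in SW620 and 0.09 and 0.18 in SUM159, in ALDHbr and ALDHneg cells. Line and tissue of origin cannot be told apart here, with 1 line of each.

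The response did not pass a test of difference between the populations. In SUM159 no gene of the whole table was called for that difference (0% of 14953), and in SW620 1 gene was (0.00717% of 13953), none of them a host gene. ZFAS1 in SW620 had the largest difference of the 9, with a response lower in ALDHbr than in ALDHneg cells (-0.36 on the log2 scale, 95% interval -0.61 to -0.11, adjusted p = 0.673, edgeR). Without DMSO replicate 2 of SW620 ALDHbr cells it was -0.45 and passed (adjusted p = 0.046, edgeR). At an unadjusted p under 0.05, ZFAS1 alone of the 9 was counted in SW620 and none in SUM159. The sort marker moved with the treatment in SW620: ALDH1A1 had a log2 fold change under NIF of -0.46 in ALDHbr and -0.71 in ALDHneg cells, and its part in the population comparison was not tested.

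Under DMSO, the ALDHbr cells of SUM159 held less ZFAS1 and SNHG6 than its ALDHneg cells, and those of SW620 held more. That the lines differ in this was not tested. In SUM159, ZFAS1 was lower in ALDHbr cells (85.9, 87.6 and 70.9 CPM) than in ALDHneg cells (118, 135 and 96.6 CPM), at 0.70-fold (log2 fold change -0.52, SE 0.11, adjusted p = 0.0041, edgeR). SNHG6 was lower as well, at 47.6, 45.3 and 43.0 CPM against 52.0, 61.2 and 51.9 CPM (log2 fold change -0.28, SE 0.08, adjusted p = 0.0151, edgeR), and neither pair of groups overlapped. These were 2 of 9, beside 23.0% of all genes called in either direction. With the replicate block GAS5 (-0.20, adjusted p = 0.00103) and SNHG15 (-0.20, adjusted p = 0.0189) were also called lower in edgeR, which made 4 of 9, beside 36.0%. The count was 1 without DMSO replicate 3 of ALDHbr cells or DMSO replicate 2 of ALDHneg cells, beside 16.8% and 20.3% of all genes. It was 3 without DMSO replicate 3 of ALDHneg cells, beside 20.7%.

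In SW620, 6 of the 9 were higher in ALDHbr cells, beside 11.3% of all genes called in either direction, with log2 fold changes of 0.31 to 0.48. SNHG15 had the largest, from 24.5, 24.7 and 22.7 CPM in ALDHneg cells to 37.8, 26.9 and 35.4 CPM in ALDHbr cells (log2 fold change 0.48, SE 0.11, adjusted p = 0.0141, edgeR). ZFAS1 had 0.40 (adjusted p = 0.00834), SNHG8 0.40 (adjusted p = 0.0253), SNHG1 0.31 (adjusted p = 0.034), GAS5 0.32 (adjusted p = 0.0434) and SNHG6 0.33 (adjusted p = 0.0444), all by edgeR. The count rested on single libraries. It was 1 without DMSO replicate 1 or 3 of ALDHbr cells, beside 5.03% and 5.1% of all genes. It was also 1 without DMSO replicate 3 of ALDHneg cells, a fit whose share of all genes is not given here. Without DMSO replicate 2 of ALDHbr cells it was 8, beside 38.8% of all genes in that fit. ZFAS1 was called in every one of these fits. Cytosolic ribosomal protein genes moved beside them, with 19 of 79 called higher in ALDHbr cells and 0 lower.

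SNHG5 set the lines apart. Its mean under DMSO was 199 ± 7.39 CPM (SD, n = 3) in ALDHbr and 202 ± 31.0 CPM (SD, n = 3) in ALDHneg cells of SUM159, and 9.83 ± 1.78 CPM (SD, n = 3) and 7.84 ± 0.698 CPM (SD, n = 3) in SW620. Normalized over all 24 libraries, it was 17.8-fold higher in SUM159 in ALDHbr cells and 22.8-fold in ALDHneg cells. SNHG12 (2.23- and 2.88-fold) and SNHG1 (1.72- and 2.18-fold) were also higher in SUM159, and for these 3 genes no SUM159 library overlapped any SW620 library. The other 6 overlapped between lines, with ratios of SUM159 to SW620 from 0.603 to 1.56 in ALDHbr and from 0.922 to 2.23 in ALDHneg cells under DMSO. Within a line the 4 groups of SNHG5 followed each other without a gap: each overlapped the next in the order of means, and the only gap was that between the lines.

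The order of the 8 group means of GAS5, on that 24-library scale, ran from 123 ± 8.38 CPM in SUM159 ALDHneg cells under NIF to 52.5 ± 2.51 CPM in SW620 ALDHneg cells under DMSO (SD, n = 3). The first 5 groups in that order each overlapped the next. The first 6 held all 4 SUM159 groups and both NIF groups of SW620, at 105.9 ± 9.71 CPM in ALDHbr and 92.0 ± 4.79 CPM in ALDHneg cells. The DMSO groups of SW620 stood below, at 65.6 ± 9.09 CPM in ALDHbr and 52.5 ± 2.51 CPM in ALDHneg cells, and overlapped neither each other nor the group above.

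Rows for the snoRNAs within the host genes were read at the same loci. Summed by host, their group means in SW620 ran from 0.179 to 8.98 CPM. Whether their reads come from released snoRNAs or from unspliced host transcript was not tested. Of 33 snoRNA rows in a list taken from the reference, 30 passed the low-count filter in SUM159 and 23 in SW620. Under NIF 0 of 30 were called in either SUM159 population and 0 of 23 in SW620 ALDHbr cells. In SW620 ALDHneg cells 2 of 23 were called, both lower, beside 22.7% of all genes called lower there. At the low counts of these rows a change is harder to call, so the shares do not compare the size of responses. At an unadjusted p under 0.05 edgeR counted 1 higher in each SUM159 population and 2 lower in SW620 ALDHbr cells, and DESeq2 called 0 in these 3 comparisons. SNORD80, in GAS5, was at 125, 98 and 98 counts in the DMSO libraries and at 52, 79 and 70 counts in the NIF libraries (3.05, 2.56 and 2.78 CPM and 1.39, 2.01 and 1.77 CPM), a log2 fold change of -0.69 (adjusted p = 0.00137, edgeR). SNORA9, in SNHG15, was at 28, 25 and 25 counts and 11, 16 and 17 counts, a log2 fold change of -0.84 (adjusted p = 0.0137, edgeR). Neither pair of groups overlapped, and SNORA9 was lost without NIF replicate 1 and was not called by DESeq2.

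Summed over the 10 listed snoRNAs of GAS5, the level in SW620 ALDHneg cells was 8.74, 9.60 and 8.61 CPM under DMSO and 7.02, 7.93 and 6.85 CPM under NIF, a ratio of means of 0.809, while GAS5 itself had a ratio of 1.74. In ALDHbr cells the ratio was 0.976 for the snoRNAs and 1.61 for the host. For ZFAS1 the ratios in ALDHneg and ALDHbr cells were 1.08 and 0.806 for the snoRNAs and 2.03 and 1.59 for the host, and for SNHG6 they were 0.656 and 0.715 for SNORD87, at 12 to 43 counts a library, and 1.41 and 1.27 for the host. The 3 host genes that rose thus had snoRNA ratios below their own in both populations. The ZFAS1 snoRNAs were at 12 to 58 counts a library in SW620, and their NIF and DMSO libraries overlapped in both populations. Those of GAS5 and SNHG6 overlapped in ALDHbr cells, while in ALDHneg cells all NIF libraries lay below DMSO. Without DMSO replicate 2 of ALDHbr cells the ratios there were 0.959 and 1.504 for the snoRNAs and host of GAS5, 0.941 and 1.48 for ZFAS1 and 0.858 and 1.18 for SNHG6. In SUM159 the GAS5 snoRNAs had ratios of 1.03 and 1.09 in ALDHbr and ALDHneg cells. In SW620 ALDHneg cells 8 of the 9 hosts had a snoRNA ratio under their own, in ALDHbr cells 6, and in SUM159 3 and 1. No test was made of these ratios, and how reads shared by a host and a snoRNA row were counted is not given in the sources used here. SNORA103, also within GAS5, was not in the list.

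**Figure D3:**
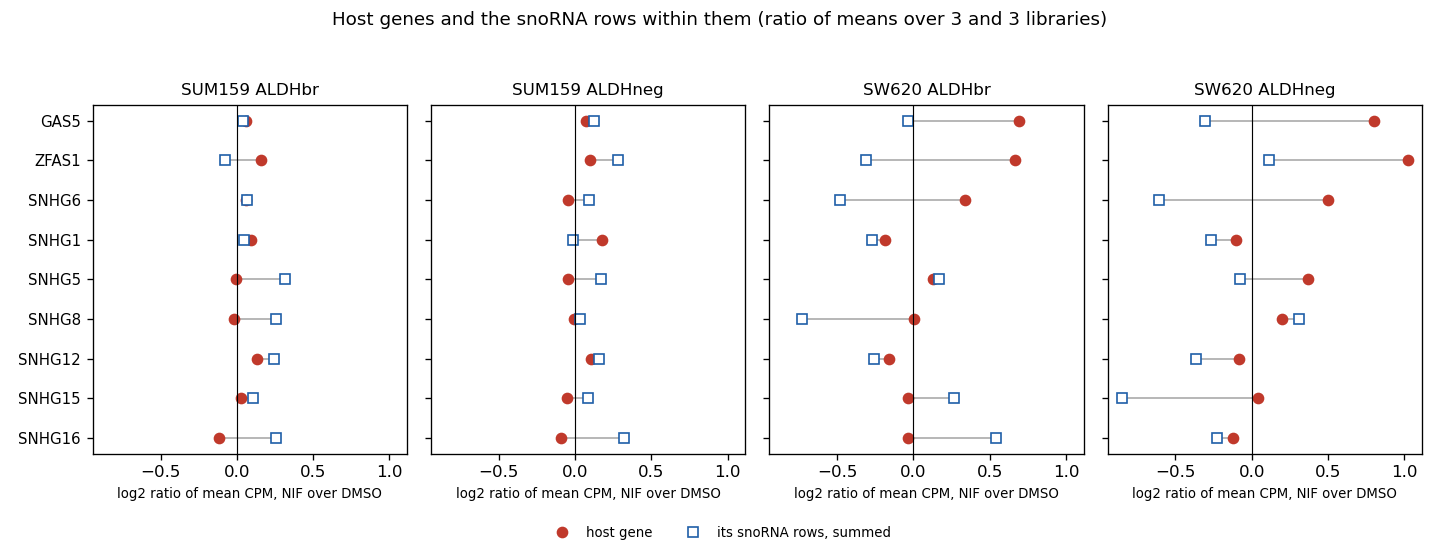
Log2 ratio of mean CPM, NIF over DMSO (horizontal axis), for each host gene (filled circles) and for the sum of the listed snoRNA rows within it (open squares), in the 4 line and population pairs. In SW620 ALDHneg cells the GAS5 host lies at a ratio of 1.74 and its snoRNAs at 0.809, while in SUM159 the host and the snoRNAs of GAS5 lie close to each other.

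Genes next to the host genes were read to see whether a whole locus moved. SLC3A2, a heavy chain of amino acid transporters whose start lies next to that of SNHG1, rose in SW620 by log2 fold changes of 1.34 and 1.62 in ALDHbr and ALDHneg cells (adjusted p = 1.72e-09 and 2.16e-10, edgeR), while SNHG1 had -0.19 and -0.11. ZNFX1, a helicase gene whose start lies next to that of ZFAS1, rose by 0.51 and 0.39 (adjusted p = 0.000794 and 0.00443, edgeR). PRSS12, a serine protease gene beside SNHG8, fell in all 4 comparisons of NIF with DMSO, by 0.53 and 0.66 in SUM159 and 0.47 and 0.73 in SW620 on the log2 scale. ZBTB37, a zinc finger gene that overlaps GAS5, had 0.16 and -0.04 in SW620, and TRNAU1AP, which meets the end of SNHG12, had 0.00 and 0.13; neither passed the test. ST6GALNAC2, a sialyltransferase gene beside SNHG16, passed the low-count filter in SW620 only, at 0.0818 to 0.482 CPM, and did not pass the test (1.10 and 0.10). GAS5-AS1, MYO1G beside SNHG15 and PRCD beside SNHG16 did not pass the low-count filter in either line. The library protocol keeps strand, but whether counting used it is not given in the sources used here, so reads of GAS5 and ZBTB37, or of SNHG6 and MCMDC2, may be shared.

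A list of 17 other snoRNA host genes held genes called in both directions in SW620. Of the 14 tested, 2 rose and 7 fell in ALDHbr cells, and 2 rose and 5 fell in ALDHneg cells, with medians of -0.35 and -0.20. Over all genes 21.4% and 22.3% were called higher and 21.9% and 22.7% lower. SNHG32 (0.49 and 0.59) and SNHG29 (0.25 and 0.29) rose in both. SNHG9 (-0.88) and DANCR (-0.78) fell most in ALDHbr cells, and SNHG4 (-0.77) and DANCR (-0.73) in ALDHneg cells. In SUM159, 0 of 16 were called in either population by edgeR or DESeq2, and at an unadjusted p under 0.05 edgeR counted 0 in ALDHbr and 1 in ALDHneg cells. With the replicate block the counts were 3 in ALDHbr and 2 in ALDHneg cells, 1 of them higher in each. Over all genes the block called 13.3% and 13.2% in either direction.

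Protein-coding transcripts known as NMD targets rose in SW620. Of 10 in the list, 8 were called higher and 0 lower in both populations, beside 21.4% and 22.3% of all genes called higher, with medians of 0.88 and 1.08. SLC7A11, a cystine transporter gene, rose by 2.72 and 2.57 in ALDHbr and ALDHneg cells, and DDIT3, a stress-induced transcription factor gene, by 1.66 and 1.74. NAT9 and TBL2, the 2 that were not called, lay between -0.05 and 0.02. The 8 that rose include ATF4 itself, DDIT3, ATF3 and SLC7A11, which the amino acid stress response also raises. Its other targets rose with them, 10 of 10 in both populations, led by CHAC1 (3.50 and 3.31), a glutathione-degrading enzyme gene, and ASNS (2.28 and 2.66), asparagine synthetase. Decay and transcription cannot be told apart from counts per gene.

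In SUM159, 0 of the 10 NMD-sensitive mRNAs were called in either population by edgeR. DESeq2 called 1 in each, and edgeR counted 3 in each at an unadjusted p under 0.05, all higher. Of the 10 ATF4 targets 1 was called, CHAC1 (0.95 in ALDHbr and 0.82 in ALDHneg cells, adjusted p = 0.0284 and 0.0378, edgeR). Under the replicate block these counts were 5 higher and 3 higher for the NMD-sensitive mRNAs, and 4 higher with 1 lower and 5 higher with 1 lower for the ATF4 targets, in ALDHbr and ALDHneg cells. Over all genes 0.936% and 1.10% were called higher without the block, and 5.77% and 6.10% with it.

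The NMD factors, the proteins that recognise and remove such transcripts, were 19 in the list. In SUM159, 2 were called higher in ALDHbr and ALDHneg cells, and 0 lower, beside 0.936% and 1.10% of all genes called higher. They were SMG5 (0.33 and 0.39), which helps to release the central helicase of the pathway, and DHX34 (0.27 and 0.26), an RNA helicase gene. The block made it 4 higher and 1 lower in each, beside 13.3% and 13.2% of all genes called in either direction. In SW620, CASC3, of the exon junction complex, rose by 0.24 and 0.35 in ALDHbr and ALDHneg cells and EIF4A3, of the same complex, by 0.30 in ALDHneg cells. UPF3B, which bridges that complex to the decay factors, was the lowest, at -0.44 and -0.55, followed by PNRC2 (-0.21 and -0.27), a decapping partner. In all, 4 of 19 fell in each SW620 population, with 1 and 2 that rose, and the medians were -0.037 and 0.021. Over all genes 21.9% and 22.7% fell and 21.4% and 22.3% rose, so the share of NMD factors that fell was near that of all genes.

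Ribosomal protein genes are the best known genes with a pyrimidine start. Of 79, 0 were called in either SUM159 population by edgeR or DESeq2, with 0 at an unadjusted p under 0.05 in edgeR. In SW620, 2 rose and 4 fell in ALDHbr cells, and 6 rose and 1 fell in ALDHneg cells, with medians of -0.051 and 0.079. RPL10 (0.30 and 0.43) and RPL12 (0.28 and 0.37) rose in both populations and RPS10 (-0.49 and -0.35) fell in both, and RPS26 (-0.41) fell in ALDHbr cells. Over all genes 43.3% were called in SW620 ALDHbr and 45.1% in ALDHneg cells, larger shares than among these 79. The count in ALDHbr cells became 36, 2 higher and 34 lower, without DMSO replicate 2, beside 50.4% of all genes. It was 11 without NIF replicate 3, beside 42.8%. In ALDHneg cells it became 52 when only the groups compared were fitted, beside 60.6%.

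Within SW620, over 12 libraries, the host genes followed each other to different degrees. The Pearson correlation of log2 CPM was 0.98 between GAS5 and ZFAS1 and 0.95 between GAS5 and SNHG6, and 0.95 between SNHG1 and SNHG12, while GAS5 and SNHG1 had 0.0088. SNHG8 had intermediate to high values with both, 0.80 with SNHG6, 0.79 with SNHG12 and 0.93 with SNHG15. In SUM159 GAS5 and ZFAS1 also had 0.95, with GAS5 and SNHG1 at 0.81. These libraries share treatment groups and, in SUM159, experiments, so the values describe this set. The 5 genes outside the list most like the mean of the 9, by the lower of the correlations in the lines over 12 libraries each and among 10143 genes, were RPL37A (0.95), RPL31 (0.94), COX5B (0.93), HDDC2 (0.92) and BUD23 (0.92).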

How the data were processed

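Total RNA (RIN above 8) of SUM159 and SW620 cells, exposed to NIF or DMSO and sorted, went into strand-preserving libraries. The submitters' processing notes name FastQC, STAR and GRCh38, without versions. The counting tool, its strand setting and its handling of shared reads are not given in the sources used here. The authors deposited raw counts per gene, without normalization, for 28307 genes in 24 libraries.

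Each line was fitted on its 12 libraries in 4 groups, and the difference between lines on all 24, in R 4.3.3 with edgeR 4.0.16: filterByExpr by group, TMM, quasi-likelihood F tests, and Benjamini-Hochberg adjustment over all genes tested, with a threshold of 0.05. CPM were scaled by TMM, with a prior count of 2 on the log2 scale. Samples were grouped by the labelled line, population and treatment. DESeq2 1.42.0, RLE factors, library-size scaling, no low-count filter, at least 10 counts in every library, other sets of libraries in the fit, the replicate block and each library left out in turn were the alternatives. On simulated counts, where 200 genes had a true log2 fold change of 1 in size, the test of NIF in ALDHbr cells recovered 200 in SUM159 (8 false calls of 14790 genes) and 200 in SW620 (13 of 13775). The simulation held no smaller changes and no pairing of libraries. It therefore does not show how often smaller changes, such as those of the host genes in SUM159, would be found. Replicates differed by more than sampling noise in all 24 pairs (chi-square per gene 1.95 to 43.1), and none was counted as a repeat.

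Deviations from the group means of same-numbered libraries correlated at 0.125 to 0.451 in SUM159, over 0.1 in 18 of 18 pairs, and at -0.278 to 0.214 in SW620, over 0.1 in 1 of 18. The numbers were therefore taken to pair the SUM159 libraries only, as independent experiments. Whether they also pair the SW620 libraries is not settled by these values.

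The 9 host genes and the other lists were chosen with earlier results of these data known, so counts over a list are descriptions. Named were all 9 host genes under NIF, the called ones in the other comparisons, up to 2 called genes with the highest and 2 with the lowest log2 fold change of each list, the 5 genes most like the host genes and genes within 5 kb of them. ALDH1A1, NAT9, TBL2, ATF4, ATF3, SNORA103 and the markers of the lines were named beyond this rule, and the snoRNA ratios without 1 library were added after seeing the data. Gene spans and start sequences are those of RefSeq (GRCh38.p14). Figures were drawn with matplotlib 3.10.9.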

Additional observations from a re-analysis of the deposited data

Results flagged for a closer look

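5 results are listed because the effect of NIF differed between SW620 and SUM159 by a direct test (edgeR, fit of all 24 libraries, adjusted over all genes). That test called 23.1% of all 16271 genes in ALDHbr and 22.4% in ALDHneg cells, so passing it is not particular to the host genes. In ALDHneg cells the log2 fold change was larger in SW620 by 0.93 for ZFAS1 (adjusted p = 6.29e-05), by 0.74 for GAS5 (adjusted p = 0.000169) and by 0.56 for SNHG6 (adjusted p = 0.0024). In ALDHbr cells it was larger by 0.62 for GAS5 (adjusted p = 0.001) and by 0.50 for ZFAS1 (adjusted p = 0.0182). Over 19 alternatives each, the adjusted p ran from 3.91e-08 to 0.000353 for ZFAS1 and from 4.29e-07 to 0.000917 for GAS5 in ALDHneg cells, from 0.000214 to 0.00936 for SNHG6, and from 1.76e-05 to 0.00714 for GAS5 and from 0.00126 to 0.0516 for ZFAS1 in ALDHbr cells. All 3 NIF libraries lay above all 3 DMSO libraries of the same population in SW620 for each of these 5 results. Over all genes 22.5% did so in ALDHbr and 31.5% in ALDHneg cells.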

How the results depend on the processing

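Of 711 alternative values for 49 fold changes of the host genes, 638 kept their direction and side of the threshold, 34 fell short of it, 11 newly passed it and 28 changed sign, the last all among values that were not called. With the replicate block, 1, 1 and 4 host genes were called for NIF in SUM159 ALDHbr cells, NIF in SUM159 ALDHneg cells and the SUM159 populations under DMSO. In SW620 the numbers were not taken to pair the libraries. There the block left GAS5 (adjusted p = 0.0638, edgeR) and SNHG6 (adjusted p = 0.0707, edgeR) out of the population comparison. It changed no call of a host gene under NIF within SW620. Fitting only the groups compared gave 7 called for NIF in SW620 ALDHneg cells, beside 60.6% of all genes. These were GAS5, ZFAS1, SNHG6, SNHG5 and SNHG8 higher and SNHG1 and SNHG16 lower. For the SW620 populations that fit gave 2, beside 5.38% of all genes. Leaving out 1 library at a time gave 3 to 5 called for NIF in SW620 ALDHbr cells, beside 35.6% to 50.4% of all genes. It gave 0 to 1 for the difference between the SW620 populations, beside 0.00704% to 0.191%. For the SUM159 populations under DMSO it gave 1 to 3, beside 16.8% to 20.7%. For the SW620 populations it gave 1 to 8. There the 8 stood beside 38.8% of all genes, and the 1 without DMSO replicate 1 or 3 of ALDHbr cells beside 5.03% and 5.1%. For the difference between lines in ALDHbr cells it gave 1 to 4, with shares of all genes not given here. With all libraries that share was 23.1%. The cause of these shifts was not tested. Sign changes in single fits were 2.45e-05, 0.0019 and 0.0018 for SNHG5 in SUM159 ALDHbr cells with DESeq2, no low-count filter and all 24 libraries, and, with library-size scaling, -0.027 for SNHG8 in SW620 ALDHbr and -0.019 for SNHG15 in SW620 ALDHneg cells. With 1 library left out, log2 fold changes under NIF ran in SUM159 ALDHbr cells from -0.056 to 0.056 for SNHG5, -0.084 to 0.079 for SNHG8 and -0.14 to 0.17 for SNHG15, in SUM159 ALDHneg cells from -0.11 to 0.087 for SNHG5, -0.088 to 0.033 for SNHG6, -0.093 to 0.14 for SNHG8, -0.15 to 0.056 for SNHG15 and -0.023 to 0.21 for ZFAS1, and in SW620 ALDHbr cells from -0.040 to 0.28 for SNHG5, -0.095 to 0.11 for SNHG8, -0.16 to 0.058 for SNHG15 and -0.13 to 0.038 for SNHG16. A fit of only the groups compared was not run for the differences between populations, where it equals the one reported.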
